A study of Mus musculus with 14 samples.

Results

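Mitotic genes encode the machinery that a cell builds to divide. In mouse bone marrow cells sorted by a GFP label that divisions dilute, 41 of them are described here out of 18194 genes measured. They were chosen by name for their textbook roles, with earlier results of these data known: each is a gene whose symbol is the only one annotated to a probe set, and the brightest such probe set, by its mean over the 14 arrays, stands for the gene. All 41 were found, and no member was removed for a low value. The mean of each over the arrays lay above 7.03, the median of the whole table.

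The cells had the LSK phenotype, which means bone marrow cells without surface markers of mature lineages but with Sca1 and Kit, a population of hematopoietic stem cells (HSCs) together with multipotent progenitors. Every mouse was an hCD34 x H2BGFP double transgenic on a C57BL/6 background. Human CD34 regulatory sequence drives the tet-off activator in such mice, so labelling depends on where that promoter is active, and the activator switches on a fusion of histone H2B with GFP. All groups also shared the treatment: mice of 6 to 8 weeks received doxycycline at 1 mg/ml in their drinking water for 12 weeks, which stopped the labelling so that each later division diluted the GFP. By their labels the groups differ only in the GFP level at which cells were sorted, and cells of adjacent levels are about 1 to 2 divisions apart. A sign of RNA quality also differed between them, as given below. There were 2 arrays of GFP0 (the most diluted), 3 of GFP1, 3 of GFP2, 2 of GFP3 and 4 of GFP4 (the label-retaining cells). RNA was amplified before labelling. The samples are called biological replicates with no animal named, so a p-value here speaks of the variation among sorted samples, and the number of arrays limits the precision.

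Mitosis is entered when cyclin-dependent kinase 1 is activated by cyclins A and B, and it is left when the anaphase-promoting complex marks cyclin B and securin for destruction. In between, kinetochores on the centromeres capture spindle microtubules, the spindle checkpoint delays anaphase until every chromosome is attached, and the central spindle guides the cut between the daughter cells. Most of these genes are transcribed late in the cycle, in G2 and M phase, under the DREAM and B-Myb-MuvB-FoxM1 complexes, so that bulk RNA of resting cells holds little of them. HSCs that keep a histone label are known as largely resting cells.

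Promoters of late cycle genes typically carry a CHR element (cell cycle genes homology region), which binds the MuvB core, close to the start site, with CCAAT boxes, bound by NF-Y, upstream. The promoter sequences below are shown because they let a reader see these elements in members that were lower in label-retaining cells, followed by 2 that lack the CHR letters. Each runs 5′ to 3′ on the gene's own strand, from 120 bases before to 30 bases after the start in RefSeq (build GRCm38.p6). Capitals mark CHR as TTTGAA, or TTCAAA where it lies on the opposite strand, and CCAAT, or ATTGG on the opposite strand.
Cdk1 (chr10:69352883-69353032, reverse strand): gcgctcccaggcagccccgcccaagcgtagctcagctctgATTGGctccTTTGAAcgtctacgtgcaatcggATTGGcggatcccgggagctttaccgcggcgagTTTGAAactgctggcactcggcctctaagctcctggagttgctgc
Ccnb2 (chr9:70421525-70421674, reverse strand): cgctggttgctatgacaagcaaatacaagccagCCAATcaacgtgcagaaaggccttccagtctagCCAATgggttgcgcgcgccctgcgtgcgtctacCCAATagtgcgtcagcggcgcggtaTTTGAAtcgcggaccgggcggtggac
Ube2c (chr2:164769809-164769958, forward strand): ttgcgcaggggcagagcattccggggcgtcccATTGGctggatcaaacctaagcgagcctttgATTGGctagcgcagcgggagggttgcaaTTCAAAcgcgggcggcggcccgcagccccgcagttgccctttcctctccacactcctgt
Cenpa (chr5:30666766-30666915, forward strand): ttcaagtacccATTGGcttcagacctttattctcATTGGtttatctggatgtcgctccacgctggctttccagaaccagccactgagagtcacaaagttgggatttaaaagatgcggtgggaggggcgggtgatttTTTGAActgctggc
Cdca8 (chr4:124936888-124937037, reverse strand): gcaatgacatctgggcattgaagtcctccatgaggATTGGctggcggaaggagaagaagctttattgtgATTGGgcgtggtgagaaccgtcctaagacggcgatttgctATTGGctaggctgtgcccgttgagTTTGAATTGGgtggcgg
Kif4 (chrX:100625945-100626094, forward strand): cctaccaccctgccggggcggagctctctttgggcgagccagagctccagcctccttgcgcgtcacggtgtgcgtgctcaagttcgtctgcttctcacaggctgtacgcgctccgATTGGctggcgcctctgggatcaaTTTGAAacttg
Cks2 (chr13:51645112-51645261, forward strand): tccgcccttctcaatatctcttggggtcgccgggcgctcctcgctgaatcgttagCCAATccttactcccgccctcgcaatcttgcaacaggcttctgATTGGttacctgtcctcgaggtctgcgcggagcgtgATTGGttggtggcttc
Mad2l1 (chr6:66535101-66535250, forward strand): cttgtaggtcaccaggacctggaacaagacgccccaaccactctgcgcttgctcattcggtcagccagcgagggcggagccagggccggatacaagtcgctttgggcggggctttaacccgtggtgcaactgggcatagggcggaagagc
In Cdca8 the CHR and a CCAAT match share 1 letter at TTTGAATTGG. Cks2 shows 3 CCAAT matches and no CHR match in the printed window, and Mad2l1 shows neither. A match is only a run of letters here, and none was tested for binding.

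Among the members 35 were found in the RefSeq promoter table, with 37 promoters of 300 bases, from 250 before to 50 after the start. Cdc25c, Dlgap5, Tpx2, Aurkb, Kif20a and Ccna2 were the others. CHR was present on either strand in 28 of the 37 promoters (75.7%), against 17.9% of all 32851 promoters of the same length. CCAAT was present in 27 (73.0%), against 37.4% of all. Both occurred in 24 (64.9%), against 6.95% of all. A CHR match within 50 bases of the start was found in 67.6% of member promoters and 4.94% of all. Where the window was limited to the 250 bases before the start, the share with CHR was 35.1%, against 16% of all, so many of the matches lay at or after the start, as one does in Ccnb2, Cenpa, Cdca8 and Kif4 above. With TTTAAA counted as CHR too the share was 81.1%, against 27.6% of all. Other mitotic genes, from a list that shares none with the members, had CHR in 58.8% of 68 promoters and CCAAT in 72.1%. A list of genes of DNA replication, a process that precedes mitosis, had CHR in 9.09% of its 22 promoters and CCAAT in 77.3%. Members that passed the test of label-retaining cells described next had CHR in 68.4% of 19 promoters, and the members that did not pass had it in 83.3% of 18.

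Mitotic genes were lower in GFP4, the label-retaining cells, than in GFP1 and GFP2, the cells in the middle of the dilution range. For each gene the mean of the 4 GFP4 arrays was compared with the mean of the GFP1 and GFP2 group means, on the log2 scale, in limma, and a gene passed at a Benjamini-Hochberg adjusted p under 0.05, taken over all 18194 genes. Of the 41 members 21 fell, 0 rose and 20 did not pass. Over all genes 264 fell, which is 1.45%. The estimate was below 0 for all 41 members and for 40.6% of all genes. The median difference of the members was -1.48, or 2.80-fold lower, with a range from -2.56 in Kif2c to -0.36 in Kif23, against a median of 0.07 over all genes. Without adjustment 39 members had a p below 0.05 and a lower value, against 9.35% of all genes. In 22 members every GFP4 array lay below every GFP1 and GFP2 array, as it did in 2.56% of genes, and 18 of the 21 that fell were among these. In Cdk1, Mad2l1, Aurkb, Kif4 and Ect2 every GFP4 array lay below every other array, as it did in 0.753% of genes. In bulk RNA, fewer cells in G2 and M phase and less RNA per cell cannot be told apart. Nor can either be told apart from differences in RNA quality or array spread between the levels, whose values are given below.

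**Figure D1:**
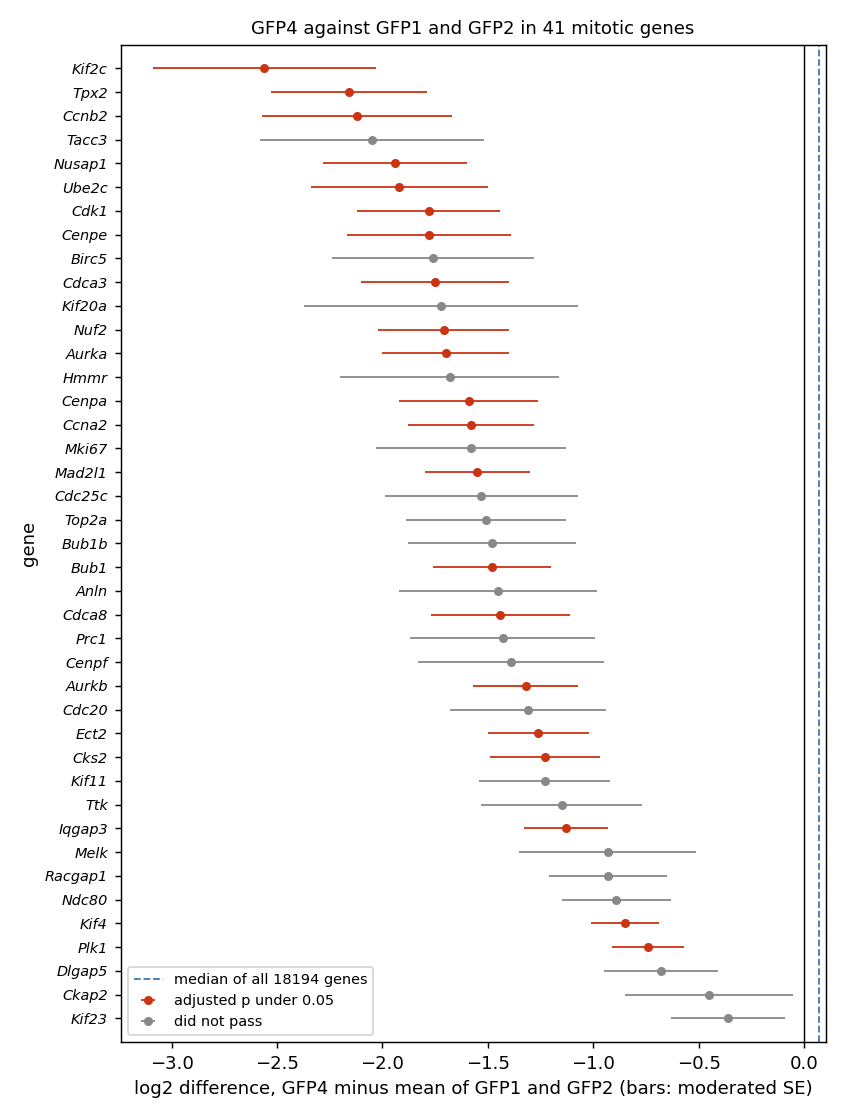
Difference in log2 expression between GFP4 (4 arrays) and the mean of GFP1 and GFP2 (6 arrays) for each of the 41 mitotic genes; points are limma estimates, bars are 1 standard error, red marks genes with an adjusted p under 0.05, grey the others, and the dashed line is the median of all genes (0.07). Every point lies below 0, from -2.56 (Kif2c) to -0.36 (Kif23), and 21 of the 41 passed.

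The number that passed depended on single arrays. It was 9 without GFP4 replicate 1, 3 without GFP4 replicate 4 (Mad2l1, Ect2 and Iqgap3), 33 without GFP4 replicate 2, 5 without GFP2 replicate 2, and 12 without GFP1 replicate 1 or GFP2 replicate 1. The share of all genes that fell moved as well, from 1.45% to 0.445% without GFP4 replicate 1, 0.308% without GFP4 replicate 4, 1.68% without GFP4 replicate 2, 0.412% without GFP2 replicate 2, 0.583% without GFP1 replicate 1 and 0.901% without GFP2 replicate 1. All 41 estimates stayed below 0 in each of these fits, and over the 27 other settings tried the median lay between -1.80 and -1.04. Some of these settings, such as adjustment over all probe sets, could not move it. Mad2l1, Nusap1 and Iqgap3 passed in 25 of the 27 settings, the highest count among the members.

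The kinases and cyclins that drive entry into mitosis had the largest share of members lower in GFP4, with 7 of 9 past the threshold and a median difference of -1.58. Cdk1, the kinase at the centre of mitotic entry, lay at 9.99 and 10.78 in GFP0, at 11.73, 10.07 and 10.68 in GFP1, at 10.99, 11.33 and 10.99 in GFP2, at 10.35 and 10.17 in GFP3 and at 8.55, 9.81, 9.77 and 8.61 in GFP4. Every GFP4 array was below every array of the other 4 levels (difference -1.78 ± 0.34, SE, adjusted p = 0.021), a 3.43-fold lower mean than in GFP1 and GFP2. Ccnb2, a B-type cyclin that activates Cdk1, lay at 9.54 and 10.39 in GFP0, at 11.08, 9.42 and 10.21 in GFP1, at 10.50, 10.97 and 10.68 in GFP2, at 9.82 and 10.12 in GFP3 and at 7.01, 9.23, 9.45 and 7.73 in GFP4. The drop was among the largest (difference -2.12 ± 0.45, SE, adjusted p = 0.0323), although GFP4 replicate 3 lay just above GFP1 replicate 2, and the 4 GFP4 arrays split into a lower and a higher pair. Ccna2, the A-type cyclin of S phase and early mitosis, lay at 9.61 and 10.56 in GFP0, at 10.79, 10.68 and 10.65 in GFP1, at 10.71, 11.02 and 10.62 in GFP2, at 10.35 and 10.16 in GFP3 and at 7.98, 9.61, 9.78 and 9.28 in GFP4. Its GFP4 arrays were below all arrays of GFP1, GFP2 and GFP3, with replicates 2 and 3 at or above the lower GFP0 array (difference -1.58 ± 0.30, SE, adjusted p = 0.0213).

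Cks2, a small subunit that docks Cdk1 onto its substrates, lay at 13.11 and 13.38 in GFP0, at 13.19, 12.57 and 12.89 in GFP1, at 13.12, 13.35 and 12.79 in GFP2, at 12.69 and 12.41 in GFP3 and at 11.08, 12.45, 12.21 and 11.29 in GFP4. It was the member with its highest mean in GFP0, and GFP4 fell below GFP0, GFP1 and GFP2 without overlap (difference -1.23 ± 0.26, SE, adjusted p = 0.0314). Aurka, the centrosomal Aurora kinase, lay at 7.94 and 8.93 in GFP0, at 10.46, 9.0 and 8.76 in GFP1, at 9.47, 9.42 and 9.40 in GFP2, at 8.67 and 8.77 in GFP3 and at 7.28, 7.91, 8.02 and 7.65 in GFP4. GFP4 was below GFP1, GFP2 and GFP3 without overlap and overlapped GFP0 (difference -1.70 ± 0.30, SE, adjusted p = 0.0161). Cdca3, which helps to degrade the mitosis inhibitor Wee1, lay at 9.99 and 10.91 in GFP0, at 11.88, 11.18 and 10.57 in GFP1, at 11.21, 10.74 and 10.74 in GFP2, at 10.28 and 9.89 in GFP3 and at 8.19, 9.72, 10.02 and 9.28 in GFP4. GFP4 was below all 6 arrays of GFP1 and GFP2 and overlapped GFP0 and GFP3 (difference -1.75 ± 0.35, SE, adjusted p = 0.0242). Plk1, the Polo kinase of centrosome maturation and mitotic entry, lay at 7.96 and 8.81 in GFP0, at 9.07, 8.81 and 8.69 in GFP1, at 9.14, 9.0 and 8.72 in GFP2, at 8.71 and 8.71 in GFP3 and at 8.01, 8.06, 8.31 and 8.27 in GFP4. Its fall was the smallest of the 21 (difference -0.74 ± 0.17, SE, adjusted p = 0.0444), in arrays that varied little, and all GFP4 arrays lay between the 2 GFP0 arrays. Cdc25c, the phosphatase that activates Cdk1, and Melk, a kinase of proliferating cells, were lower by estimate (-1.53 and -0.93) and did not pass.

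**Figure D2:**
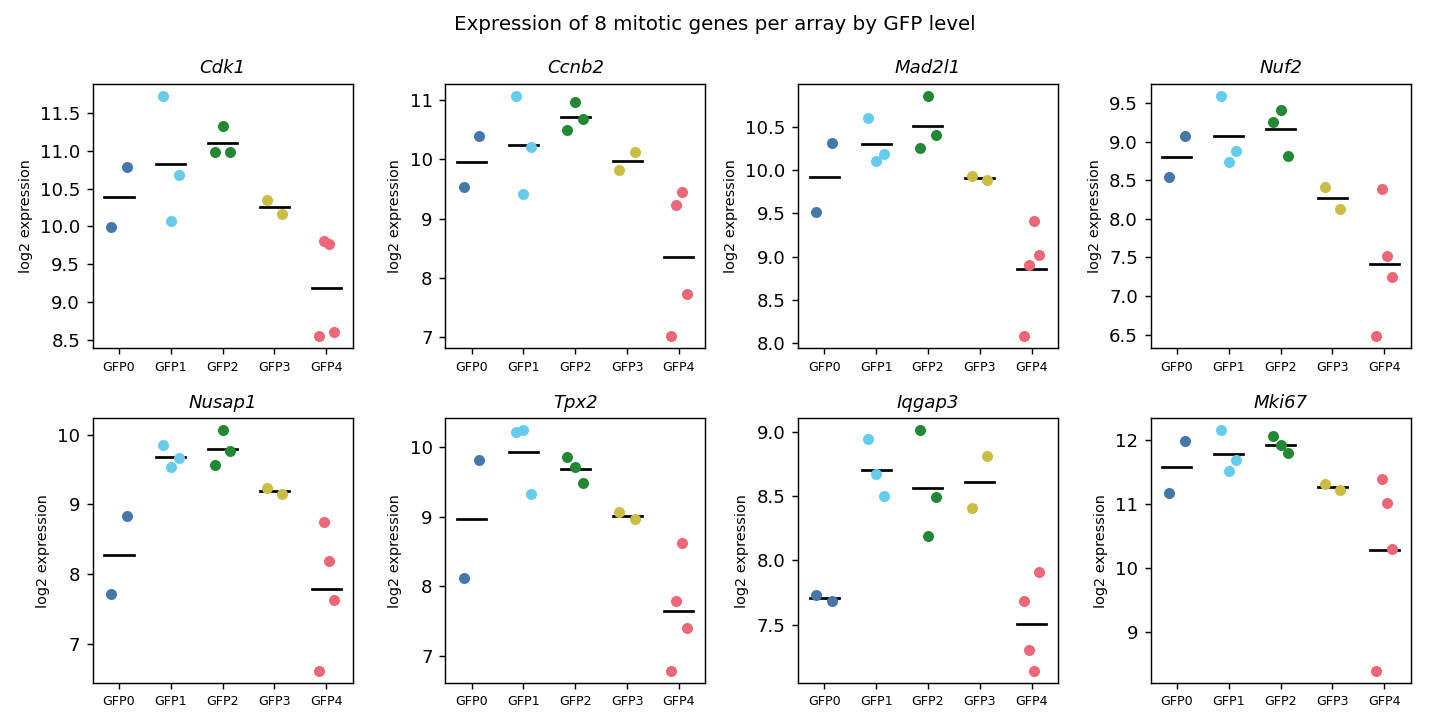
Log2 expression of 8 mitotic genes (Cdk1, Ccnb2, Mad2l1, Nuf2, Nusap1, Tpx2, Iqgap3 and Mki67) by GFP level; each point is 1 array and each bar a group mean (2, 3, 3, 2 and 4 arrays from GFP0 to GFP4). In each panel the GFP4 mean is the lowest, and the GFP4 points run from 8.40 to 11.39 in Mki67 but from 7.14 to 7.91 in Iqgap3.

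Of the genes of the spindle checkpoint and of the anaphase-promoting complex, 3 of 6 fell, with a median of -1.48. Mad2l1, the checkpoint protein that holds Cdc20 inactive, lay at 9.52 and 10.31 in GFP0, at 10.60, 10.11 and 10.19 in GFP1, at 10.26, 10.86 and 10.41 in GFP2, at 9.93 and 9.89 in GFP3 and at 8.08, 8.90, 9.41 and 9.02 in GFP4. All 4 GFP4 arrays were below all other arrays, and its adjusted p was the smallest of the 41 (difference -1.55 ± 0.25, SE, adjusted p = 0.00925). Bub1, a checkpoint kinase at the kinetochore, lay at 7.46 and 7.81 in GFP0, at 8.20, 7.53 and 8.52 in GFP1, at 8.18, 8.40 and 7.71 in GFP2, at 7.52 and 7.17 in GFP3 and at 6.29, 7.55, 6.08 and 6.49 in GFP4. GFP4 replicate 2 stood above GFP1 replicate 2 while the other 3 GFP4 arrays were below every GFP1 and GFP2 array (difference -1.48 ± 0.28, SE, adjusted p = 0.0207). Ube2c, the ubiquitin-conjugating enzyme that works with the anaphase-promoting complex, lay at 6.78 and 7.67 in GFP0, at 9.65, 8.04 and 8.08 in GFP1, at 8.89, 8.88 and 8.14 in GFP2, at 7.87 and 7.56 in GFP3 and at 5.55, 7.35, 7.60 and 6.26 in GFP4. GFP4 was below GFP1 and GFP2 without overlap, and GFP0 was low as well (difference -1.92 ± 0.42, SE, adjusted p = 0.0366). Bub1b (-1.48), Cdc20 (-1.31) and Ttk (-1.15), which encode a checkpoint protein, the activator of the anaphase-promoting complex and the Mps1 kinase, did not pass.

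Centromere, kinetochore and chromosomal passenger genes had 5 of 8 members lower in GFP4 and a median of -1.52. Nuf2, a subunit of the Ndc80 complex that grips microtubules, lay at 8.55 and 9.07 in GFP0, at 9.60, 8.74 and 8.88 in GFP1, at 9.26, 9.41 and 8.82 in GFP2, at 8.41 and 8.13 in GFP3 and at 6.48, 8.39, 7.52 and 7.25 in GFP4. GFP4 was below GFP0, GFP1 and GFP2, and only its replicate 2 reached into GFP3 (difference -1.71 ± 0.31, SE, adjusted p = 0.0171). Aurkb, the kinase of the chromosomal passenger complex, lay at 7.10 and 7.62 in GFP0, at 8.39, 7.79 and 7.49 in GFP1, at 7.28, 8.23 and 7.61 in GFP2, at 7.20 and 7.88 in GFP3 and at 6.96, 6.46, 6.47 and 6.02 in GFP4. Every GFP4 array was below all others (difference -1.32 ± 0.25, SE, adjusted p = 0.0216). Cdca8, which encodes borealin of the same complex, lay at 12.64 and 13.31 in GFP0, at 13.42, 12.99 and 13.18 in GFP1, at 13.43, 13.26 and 13.13 in GFP2, at 12.89 and 12.67 in GFP3 and at 10.53, 12.64, 12.39 and 11.61 in GFP4. GFP4 was below all arrays of GFP1, GFP2 and GFP3 and touched GFP0, whose replicate 1 equalled GFP4 replicate 2 at this rounding (difference -1.44 ± 0.33, SE, adjusted p = 0.043).

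Cenpa, the histone H3 variant that marks centromeres, lay at 10.41 and 11.43 in GFP0, at 11.92, 10.43 and 11.08 in GFP1, at 11.45, 11.25 and 11.40 in GFP2, at 10.49 and 10.38 in GFP3 and at 8.91, 10.41, 10.08 and 9.27 in GFP4. All GFP4 arrays were below GFP1 and GFP2, the nearest being replicate 2 at 10.41 beside GFP1 replicate 2 at 10.43 (difference -1.59 ± 0.33, SE, adjusted p = 0.0298). Cenpe, the kinesin that moves chromosomes to the spindle equator, lay at 8.11 and 9.24 in GFP0, at 9.67, 8.52 and 8.98 in GFP1, at 9.14, 9.57 and 9.0 in GFP2, at 8.59 and 8.30 in GFP3 and at 6.49, 8.54, 7.82 and 6.61 in GFP4. GFP4 replicate 2 reached the lowest GFP1 array and the other 3 lay below it (difference -1.78 ± 0.39, SE, adjusted p = 0.0366). The members that did not pass were Birc5, the survivin of the passenger complex (-1.76), Cenpf, a large kinetochore protein (-1.39), and Ndc80, the partner of Nuf2 (-0.89). Birc5 varied from 8.66 to 11.47 among the 3 GFP1 arrays.

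Among spindle motors and microtubule-associated proteins 4 of 9 fell, with a median of -1.68. Kif2c, the kinesin that takes microtubules apart at centromeres, lay at 9.28 and 10.90 in GFP0, at 11.33, 11.25 and 11.12 in GFP1, at 11.56, 11.18 and 10.86 in GFP2, at 10.87 and 10.21 in GFP3 and at 6.48, 9.44, 9.83 and 8.89 in GFP4. It had the largest fall of all members, 5.89-fold (difference -2.56 ± 0.53, SE, adjusted p = 0.0299), with GFP4 replicate 1 far below the other 3 GFP4 arrays. That fall is of its brightest probe set, of a class that may also bind other transcripts. The other Kif2c probe sets gave -0.67, -0.39 and 0.05, and none of them fell after adjustment over all probe sets. Tpx2, which activates Aurka on the spindle, lay at 8.11 and 9.82 in GFP0, at 10.22, 10.24 and 9.32 in GFP1, at 9.86, 9.72 and 9.48 in GFP2, at 9.06 and 8.97 in GFP3 and at 6.78, 7.79, 8.62 and 7.39 in GFP4. GFP4 was below GFP1, GFP2 and GFP3 without overlap and overlapped GFP0 (difference -2.16 ± 0.37, SE, adjusted p = 0.0133, 4.47-fold). Nusap1, a microtubule bundling protein, lay at 7.72 and 8.83 in GFP0, at 9.85, 9.53 and 9.66 in GFP1, at 9.57, 10.06 and 9.77 in GFP2, at 9.24 and 9.15 in GFP3 and at 6.62, 8.75, 8.19 and 7.63 in GFP4. The same 3 levels stood clear of GFP4, and GFP0 overlapped it (difference -1.94 ± 0.34, SE, adjusted p = 0.0153). Kif4, a chromosome-bound kinesin of the central spindle, lay at 8.10 and 8.40 in GFP0, at 8.83, 8.22 and 8.29 in GFP1, at 8.28, 8.68 and 8.32 in GFP2, at 8.15 and 7.98 in GFP3 and at 7.71, 7.79, 7.50 and 7.33 in GFP4. All GFP4 arrays were below all others, by a small margin (difference -0.85 ± 0.16, SE, adjusted p = 0.0213). Tacc3 (-2.05), Hmmr (-1.68), Kif11 (-1.23), Dlgap5 (-0.68) and Ckap2 (-0.45), which encode spindle proteins, did not pass.

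Genes of the central spindle and of cytokinesis had 2 of 7 members lower and a median of -1.26. Ect2, which activates RhoA at the division plane, lay at 8.58 and 8.43 in GFP0, at 8.40, 8.09 and 8.92 in GFP1, at 8.44, 9.48 and 8.98 in GFP2, at 8.18 and 8.24 in GFP3 and at 6.95, 7.52, 7.41 and 7.96 in GFP4. Every GFP4 array was below every other array (difference -1.26 ± 0.24, SE, adjusted p = 0.0193). Iqgap3, a scaffold protein of proliferating cells, lay at 7.73 and 7.68 in GFP0, at 8.94, 8.67 and 8.50 in GFP1, at 9.01, 8.19 and 8.49 in GFP2, at 8.41 and 8.81 in GFP3 and at 7.68, 7.30, 7.14 and 7.91 in GFP4. GFP4 was below GFP1, GFP2 and GFP3, while both GFP0 arrays lay within the GFP4 range (difference -1.13 ± 0.20, SE, adjusted p = 0.0153). Kif20a (-1.72), Anln (-1.45), Prc1 (-1.43), Racgap1 (-0.93) and Kif23 (-0.36) did not pass. Kif23, a motor of the central spindle, had the estimate nearest 0, and its mean in GFP4 was 9.59 ± 0.66 (SD, n = 4) against 8.97 ± 0.69 (SD, n = 2) in GFP0.

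The 2 genes of chromosome structure did not pass, although their estimates were close to the median of the members. Top2a, the topoisomerase that untangles sister chromatids, lay at 10.93 and 11.88 in GFP0, at 12.27, 10.59 and 11.71 in GFP1, at 11.96, 12.11 and 12.04 in GFP2, at 11.38 and 10.91 in GFP3 and at 9.17, 11.16, 10.50 and 10.24 in GFP4. GFP4 was below GFP2 without overlap, and GFP1 replicate 2 was within the GFP4 range (difference -1.51 ± 0.38, SE, adjusted p = 0.0593). Mki67, which coats mitotic chromosomes and is the common marker of cycling cells, lay at 11.18 and 11.99 in GFP0, at 12.15, 11.51 and 11.69 in GFP1, at 12.06, 11.92 and 11.80 in GFP2, at 11.31 and 11.22 in GFP3 and at 8.40, 11.39, 11.02 and 10.30 in GFP4. GFP4 lay below all GFP1 and GFP2 arrays, with replicate 1 far under the next array (difference -1.58 ± 0.45, SE, adjusted p = 0.0923). Over the 20 members that did not pass, adjusted p ran from 0.0577 to 0.575 and standard errors from 0.26 to 0.65, against 0.16 to 0.53 in those that fell.

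By group mean, most members were highest in the middle of the GFP range. The highest group mean was in GFP2 for 27 members, in GFP1 for 13 and in GFP0 for 1, Cks2. Over all genes 15.7% peaked in GFP2, 13.8% in GFP1 and 36.2% in GFP0. The lowest mean was in GFP4 for 38 members, against 16.8% of all genes, and in GFP0 for Kif20a, Kif23 and Ckap2. In 37 members both GFP1 and GFP2 stood above the other 3 levels, a pattern that was not counted over all genes. The peak itself could not be placed between GFP1 and GFP2: the margin of the highest level over the next had a median of 0.18 and reached at most 0.56 (Melk), and it exceeded 2 standard errors in 0 members.

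**Figure D3:**
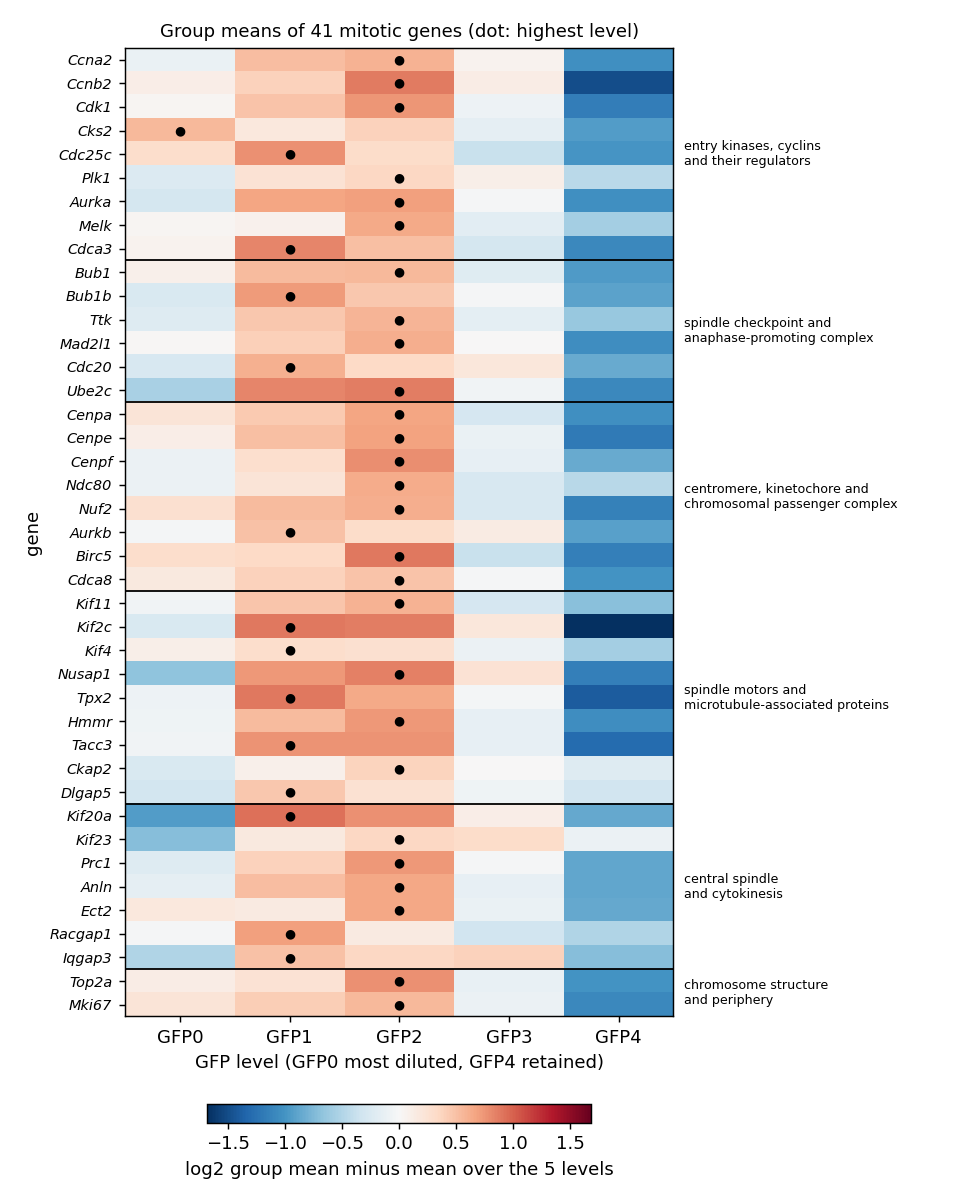
Group means of the 41 mitotic genes (grouped by role) over GFP0 to GFP4, each as its log2 difference from the gene's mean over the 5 levels; red is higher, blue is lower, and a dot marks the highest level. GFP1 and GFP2 hold 40 of the 41 dots, and GFP4 is the lowest level in 38 genes.

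The lower values after GFP2 were spread over the last 2 steps. From GFP2 to GFP3 the estimate was below 0 in 40 members, with a median of -0.72, and from GFP3 to GFP4 in all 41, with a median of -0.86. Over all genes 48.8% and 43.2% of the estimates were below 0 in these steps. In limma 0 members and 0 of all genes (0%) passed in either step. At an unadjusted p below 0.05, 2 members (Ndc80 and Ect2) were lower from GFP2 to GFP3, against 0.566% of all genes, and 15 from GFP3 to GFP4, against 2.70%. GFP4 arrays lay below all GFP3 arrays in 16 members, against 8.18% of genes. Between GFP1 and GFP2 the median was 0.10 and 0 members had an unadjusted p below 0.05, against 2.71% of all genes.

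The difference between GFP0 and the middle was smaller by estimate and rested largely on 1 array. GFP0 minus the mean of GFP1 and GFP2 had a median of -0.58, against 0.03 over all genes, and 40 of 41 estimates were below 0 (47.5% of all genes), Cks2 (0.26 ± 0.33, SE) being the other. The lowest were Kif20a (-1.78), Nusap1 (-1.46) and Ube2c (-1.39). In limma 0 members and 0 of all genes (0%) passed, and 7 members had a lower value at an unadjusted p below 0.05, against 7.24% of all genes. GFP0 replicate 1 was lower than GFP0 replicate 2 in 39 members. Without that replicate the median was -0.10, and without replicate 2 it was -0.98.

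When the ends of the range were compared, the members were lower in GFP4 than in GFP0 by estimate and 0 passed. Over all genes 78 (0.429%) were lower. The median of the members was -0.88, against -0.04 over all genes, and 38 of 41 were below 0 (54.6% of all genes). An unadjusted p below 0.05 with a lower value was found in 18 members and in 5.99% of all genes, and the smallest adjusted p was 0.0526, in Cks2 (-1.49 ± 0.35, SE). Kif23 (0.63 ± 0.37, SE), Kif20a (0.06 ± 0.87, SE) and Ckap2 (0.04 ± 0.54, SE) had estimates above 0. Without GFP0 replicate 2 the median was -0.34. With GFP4 replicate 2 left out 3 members passed, and the share of all genes that passed in that fit was not counted.

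The slope per GFP level, which weighs the 5 levels equally along a line, was below 0 for 39 members (54.8% of all genes) with a median of -0.21, against -0.01 over all genes. Cks2 was the member that fell (-0.33 ± 0.08 per level, SE, adjusted p = 0.0391), while 195 of all genes (1.07%) fell. Without GFP0 replicate 1 or 2, GFP1 replicate 1, GFP2 replicate 1 or 2, GFP3 replicate 1 or 2, or GFP4 replicate 1 or 4, 0 members passed, and without GFP4 replicate 2, 6 did. The test of any difference between the levels passed for 0 members and 127 of all genes (0.698%). Its smallest adjusted p among the members was 0.0648, in Iqgap3, and 30 members had an unadjusted p below 0.05, against 12.8% of all genes. It passed for 4 members without GFP4 replicate 2 and for 1 without GFP1 replicate 1. The shares of all genes that passed in these fits, and in those of the slope, were not counted. The test of departure from a straight line passed for 0 members and 0 of all genes (0%), with 14 members at an unadjusted p below 0.05, against 7.01% of all genes.

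Members moved together from array to array, also within a level. The mean of the 41 was 8.76 and 9.67 in the GFP0 arrays, 10.22, 9.51 and 9.65 in GFP1, 9.91, 10.04 and 9.71 in GFP2, 9.31 and 9.17 in GFP3, and 7.49, 9.19, 8.73 and 8.19 in GFP4. The lowest array was GFP4 replicate 1, where 31 of the 41 members had their lowest value of the 14 arrays, and the highest was GFP1 replicate 1. In GFP4 the median SD of the members was 0.83, against 0.31 over all genes, and in GFP2 it was 0.27, against 0.20. After group means were removed, a member's correlation with the mean of the other 40 had a median of 0.847 over the 14 arrays, and it was lowest in Iqgap3 (-0.342) and Aurkb (0.0888). The values share array, RNA and amplification, so this is a description.

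A sign of RNA quality, the Actb difference, and the spread of the arrays followed the members in part. The same difference of Gapdh ordered the levels differently. The difference between 3′ and 5′ probe sets of Actb, which grows as RNA is degraded or amplified from its end, was on average 4.45 ± 0.09 in GFP0 (SD, n = 2), 3.96 ± 0.88 (SD, n = 3) in GFP1, 3.71 ± 0.19 (SD, n = 3) in GFP2, 4.10 ± 0.13 (SD, n = 2) in GFP3 and 4.64 ± 0.46 (SD, n = 4) in GFP4. GFP1 replicate 1, where the members were highest, had the lowest value (2.99), and GFP4 replicates 1 and 4, where they were lowest, had the highest (4.88 and 5.05). Other arrays went the other way. GFP4 replicate 3 had a smaller Actb difference (3.99) than GFP1 replicate 3 (4.72) and a lower mean of the members (8.73 against 9.65). For Gapdh the means were 5.15, 5.53, 5.63, 6.34 and 5.80 from GFP0 to GFP4 (SD 0.44, 0.86, 0.19, 0.34 and 0.54). GFP4 replicate 1 (5.69) lay below GFP2 replicate 1 (5.81), while GFP4 replicate 4 (6.57) lay above every GFP1 and GFP2 array. With these differences of Actb and Gapdh as covariates, 0 members passed for GFP4 against GFP1 and GFP2, all 41 estimates stayed below 0 with a median of -1.10, 26 members had a lower value at an unadjusted p below 0.05, and 9 of all genes passed in either direction. The values of an array had the smallest interquartile range in GFP0 replicate 1 (2.09) and in GFP4 replicate 1 (2.21), the arrays in which the members were lowest in their groups. With both left out 10 members passed, against 0.561% of all genes, and the median was -1.08. The widest range, 2.73 in GFP2 replicate 3, went with the lowest mean of the members in GFP2 (9.71).

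**Figure D4:**
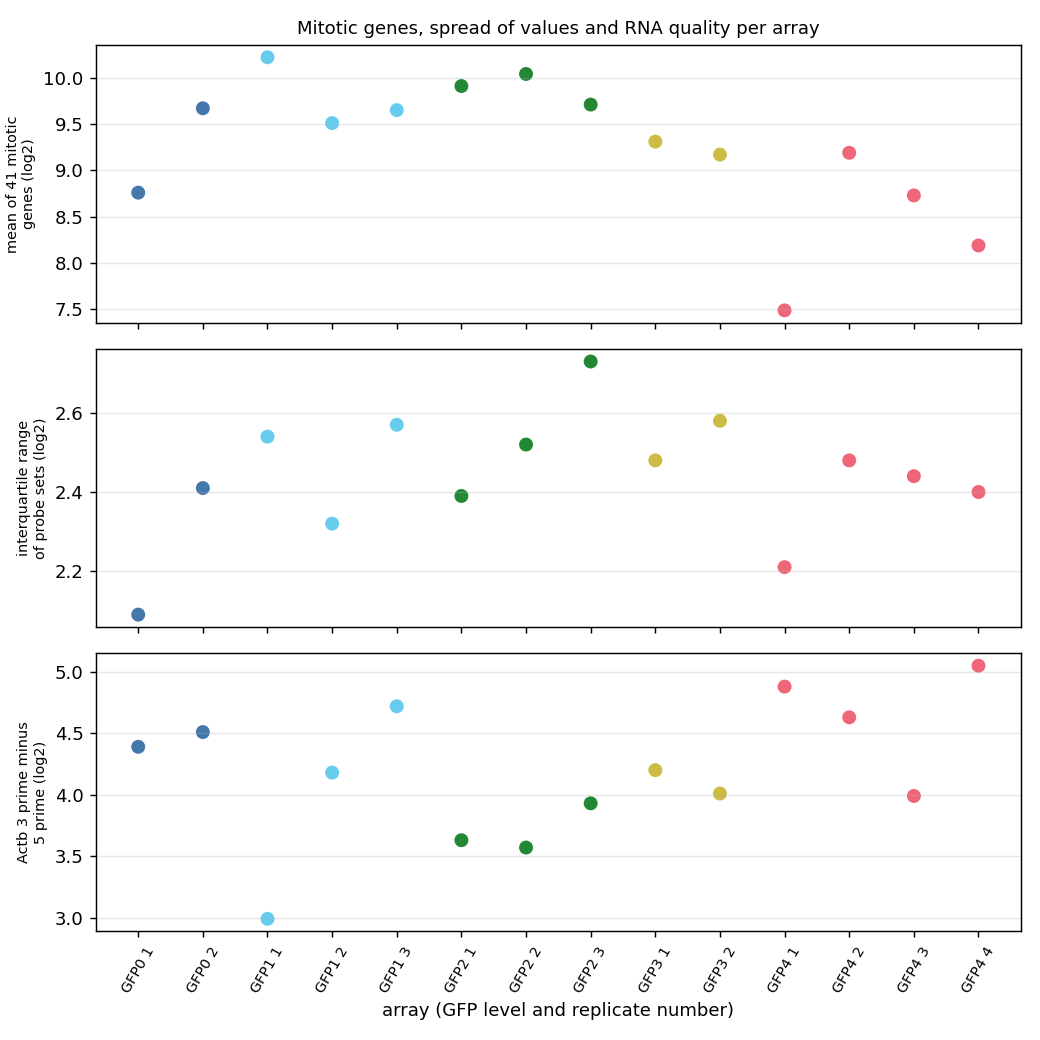
For each of the 14 arrays, ordered by GFP level, the mean log2 expression of the 41 mitotic genes (top), the interquartile range over probe sets in log2 units (middle) and the log2 difference between 3′ and 5′ Actb probe sets (bottom). GFP4 replicate 1 has the lowest mean of the members (7.49), a narrow range (2.21) and a high Actb difference (4.88).

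Other probe sets of the same genes were read separately. The 41 members have 86 probe sets with a single symbol, and 45 of these were not used above. Of the 45, 35 were lower in GFP4 than in GFP1 and GFP2, 10 fell after adjustment over all probe sets and 0 rose. Of all 45101 probe sets 38.8% had an estimate below 0 and 0.769% fell. Bub1 had a second probe set with a larger fall (-2.51 ± 0.30, SE), and Kif11, Cdc20, Prc1, Racgap1, Top2a and Bub1b each had one that fell although the brightest did not. The 10 above 0 lay between 0.01 and 0.35 and belong to Racgap1, Kif2c, Kif23, Top2a, Cdca3, Cenpf, Tpx2 and Cenpa. Of the probe sets used, 4 end in _x_at, a class that may also bind other transcripts: those of Cdc25c, Cdc20, Aurkb and Kif2c.

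Further genes of mitosis, from a list of 71 measured genes that shares none with the members, went the same way: 23 fell in GFP4 against GFP1 and GFP2, 0 rose, and the median was -1.0. For the slope 3 of them fell: Ncaph, a condensin subunit (-0.31 ± 0.07, SE, adjusted p = 0.0301), and the kinetochore genes Cenpw (-0.32 ± 0.07, SE, adjusted p = 0.0358) and Cenph (-0.24 ± 0.06, SE, adjusted p = 0.0402). Cenpt, another kinetochore gene, rose (0.31 ± 0.06, SE, adjusted p = 0.0219). Ncaph and Cenph also passed the test of any difference between levels.

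Subunits of the anaphase-promoting complex itself and its activator Cdh1 are not confined to late cycle phases. For GFP4 against GFP1 and GFP2, 0 of 13 passed (median -0.26), against 2.14% of all genes in either direction (median 0.07). At that share, 0 in a list this short does not set it apart from all genes. The estimate was below 0 for 10 of the 13, against 40.6% of all genes. Among 11 genes that restrain entry into mitosis 0 passed in that comparison (median -0.29), with the same limit, and 9 estimates were below 0. For the slope 2 of these fell: Cdkn1a, the p21 inhibitor (-0.25 ± 0.05, SE, adjusted p = 0.0243), and Chek1, a DNA damage checkpoint kinase (-0.37 ± 0.09, SE, adjusted p = 0.0491). Of 22 transcriptional regulators of mitotic genes 1 fell in GFP4 against GFP1 and GFP2 (median -0.26), against 1.45% of all genes. The estimate was below 0 for 18 of them. For the slope E2f8, a repressor of cell cycle genes, fell (-0.31 ± 0.08, SE, adjusted p = 0.049).

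Replication genes, which act in S phase, showed other values in GFP0 by estimate. In GFP4 against GFP1 and GFP2, 9 of 23 fell and 0 rose, with a median of -0.97. GFP0 minus the mean of GFP1 and GFP2 had a median of 0.19 in this list and of -0.58 in the mitotic genes, and 10 of 23 replication genes peaked in GFP1 or GFP2, against 40 of 41 mitotic genes and 29.6% of all genes. Without GFP0 replicate 1 the median of the mitotic genes was -0.10, and the replication list was not read in that fit. The difference between the lists was not tested. For the slope 10 of 23 fell, among them the licensing factor Cdt1 (-0.44 ± 0.06, SE, adjusted p = 0.00228), Gins1 of the replicative helicase (-0.55 ± 0.08, SE, adjusted p = 0.00328), Orc1 of the origin recognition complex (-0.23 ± 0.05, SE, adjusted p = 0.0189), cyclin E2, Ccne2 (-0.46 ± 0.09, SE, adjusted p = 0.0197), and the ribonucleotide reductase subunits Rrm2 (-0.52 ± 0.11, SE, adjusted p = 0.0214) and Rrm1 (-0.31 ± 0.06, SE, adjusted p = 0.0235).

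Kit, a marker of the sort, lay between 8.05 and 9.91 over the 14 arrays, and the mean of 3 lineage markers that the sort removes (Cd3e, Cd79a and Itgam) between 6.22 and 6.86. In GFP4 against GFP1 and GFP2, 3 of 4 HSC markers rose (Procr, Slamf1 and Mllt3). Of 2 markers of more cycling progenitors, Cd48 fell (-3.13 ± 0.49, SE, adjusted p = 0.00851) and Flt3 did not pass (-0.40 ± 0.25, SE, adjusted p = 0.451). Of the markers of other cell types 0 of 8 for neutrophils and monocytes, 0 of 5 for mast cells and 0 of 3 for erythroblasts passed. Among 4 B and plasma cell markers Ighm fell (-2.79 ± 0.63, SE, adjusted p = 0.0417), and among 3 T and NK cell markers Nkg7 fell (-2.72 ± 0.59, SE, adjusted p = 0.0338). For the slope 1 neutrophil and monocyte marker, 3 mast cell markers, 2 B and plasma cell markers and 1 T and NK cell marker fell, and 0 erythroblast markers did.

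The mean level of each marker list by array gives the range in every group. Neutrophil and monocyte markers ran from 10.81 to 12.48 in GFP0, 8.18 to 11.98 in GFP1, 7.92 to 11.36 in GFP2, 8.10 to 9.08 in GFP3 and 7.94 to 10.76 in GFP4. Mast cell markers ran from 9.16 to 9.53 in GFP0, 7.19 to 9.52 in GFP1, 6.58 to 8.56 in GFP2, 6.25 to 6.53 in GFP3 and 6.23 to 8.16 in GFP4. Both lists thus had their highest lower end in GFP0, as did the erythroblast and the T and NK cell lists that follow. The B and plasma cell list had its highest lower end in GFP1. Erythroblast markers ran from 7.05 to 7.28 in GFP0, 6.56 to 6.85 in GFP1, 6.39 to 6.78 in GFP2, 6.60 to 6.72 in GFP3 and 6.62 to 7.16 in GFP4. B and plasma cell markers ran from 8.81 to 9.60 in GFP0, 8.93 to 9.43 in GFP1, 7.91 to 8.80 in GFP2, 7.78 to 7.79 in GFP3 and 7.37 to 8.18 in GFP4. T and NK cell markers ran from 9.55 to 9.82 in GFP0, 8.96 to 9.64 in GFP1, 8.75 to 9.44 in GFP2, 8.52 to 8.64 in GFP3 and 7.66 to 8.99 in GFP4. Their part in the values of the mitotic genes was not tested.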

How the data were processed

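Arrays of 14 sorted samples were analysed. The authors deposited log2 probe-set expression, made with GCOS, RMA and affy per the submitters' processing notes, with no versions, genome build or detection calls in the sources used here; no array column lacked a sample. These log2 values were used as deposited. The table holds 45101 probe sets, and 34958 name exactly 1 symbol in the platform annotation, which can be old. All 14 arrays entered 1 group-mean model in limma 3.58.1 under R 4.3.3, with moderated (empirical Bayes) two-sided tests, adjusted by Benjamini-Hochberg over 18194 genes. The fits were tested on simulated data with noise that was independent between genes and equally wide at every level. The members moved together and varied most in GFP4, so that simulation did not cover their setting. Members, lists and comparisons were chosen with earlier results of these data known. Values in every array are given for members past the threshold in a test, the member with the smallest slope p in each role, and Mki67, Top2a, Cdk1 and Ccnb2. Other members are named by estimate, some after their values were seen. Genes of other lists are named where they passed the slope or overall test, up to 6 a list. Promoters were searched on both strands by exact letters. Same-numbered samples correlated between -0.258 and 0.576 in their deviations from group means, so the numbers were not taken as pairs. Alternatives covered array scaling, dim genes, other probe sets, the variance model, array weights, left-out arrays, RNA quality covariates and the replicate number. Figures were drawn with matplotlib 3.10.9.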

Additional observations from a re-analysis of the deposited data

Results flagged for a closer look

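Among the 41 members in the 4 GFP4 arrays, 2 had an array far from the others. Chance alone would be expected to mark about 1 in 20, so this count is about what chance would give. The share over all genes was not counted. For Ttk, the Mps1 checkpoint kinase, GFP4 replicate 2 stood at 9.01 while the next array stood at 7.15 and the lowest at 6.87, a gap of 0.873 of the whole range, above the critical value of Dixon's test. For Ndc80, GFP4 replicate 4 stood at 7.39 while the next stood at 7.83 and the highest at 7.89, a gap of 0.879 of the range. Neither gene passed the comparison of GFP4 with GFP1 and GFP2.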

How the results depend on the processing

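All 41 members stayed below 0 for GFP4 against GFP1 and GFP2 in all 27 other settings, and no result changed its direction. These estimates could not move with a trended robust variance, adjustment over all probe sets, dim genes removed or only the compared arrays used. Nor could they without 1 GFP0 or GFP3 array, and the median for GFP4 against GFP1 and GFP2 stayed at -1.48. The number that fell there (21) was 36 with array weights (4.08% of all genes fell), 10 without both narrow arrays (0.561%), 0 with the 3′ to 5′ covariates (0.033%), and, in settings chosen after seeing the data, 5 with the interquartile range as a covariate (0.506%) and 10 without GFP4 replicates 1 and 2 (0.539%), where the first fit had 1.45%. With 1 array left out it ran from 3 to 33, and the median from -1.80 to -1.08. For the slope (1 member) the count was 0 after median centring, over all probe sets, with array weights or with the 3′ to 5′ covariates, 2 above the table median or by regression on the level, 3 with cyclic loess or the interquartile range, and 4 with the mean over probe sets or without both GFP4 arrays. It ran from 0 to 6 with 1 array left out, the median from -0.31 to -0.14. For GFP4 against GFP0 (0) the count was 1 with cyclic loess, above the table median, with the mean over probe sets or with a trended robust variance, and 2 without both GFP4 arrays. It ran from 0 to 3 with 1 array left out, the median from -1.22 to -0.34. For GFP0 against GFP1 and GFP2 the count was 0 in every fit that kept both GFP0 arrays. Its median ran from -0.98 to -0.10 with 1 array left out. For any difference between levels (0) the count was 3 with the mean over probe sets, 15 with array weights and 1 without both GFP4 arrays, and 0 to 4 with 1 array left out. For the departure from a line it was 0 throughout. Apart from GFP4 against GFP1 and GFP2, the share of all genes that passed was not counted in these settings. Those counts thus cannot be set against it. Members peaking in GFP2 (27) numbered 17 with the 3′ to 5′ covariates, 11 with the interquartile range, and 18 to 32 with 1 array left out, and those peaking in GFP1 or GFP2 (40) numbered 33, 27 and 36 to 40 in the same settings. The share of promoters with CHR was 35.1% before the start alone. Beyond fewer arrays or a shorter window, the cause of these shifts was not tested. Without detection calls, low values have no known floor.

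With the replicate number as a block, 4 members and 0.341% of all genes fell for GFP4 against GFP1 and GFP2 (members Mad2l1, Nusap1, Ect2 and Iqgap3) and 0 for the slope. Samples share only a number by the pairing check (correlations from -0.19 to 0.531 for number 1, -0.258 to 0.144 for number 2 and 0.0462 to 0.576 for number 3).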
